A study of Mus musculus with 12 samples.

Results

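The genes described are the 2′-5′-oligoadenylate synthetase (OAS) family and its OAS-like relatives in mouse dendritic cells: Oas1a, Oas2, Oas3, Oasl1 and Oasl2. Each was taken as the probe set that the platform annotation gives to that symbol and to no other gene. All 5 had such a probe set, 5 of 19937 genes that did. RNA was measured on 12 Affymetrix mouse arrays, 1 array per sample, as log2 signals. The cells were grown from bone marrow for 7 days with GM-CSF at 200 ng/ml and enriched on CD11c beads. The arrays form 4 groups of 3: IL-2 knockout cells given curdlan for 6 h, untreated IL-2 knockout cells, wild-type cells given curdlan for 6 h and untreated wild-type cells. Curdlan is a beta-glucan particle that binds the receptor Dectin-1. All 12 arrays, wild-type ones included, carry the strain name B6.129P2-Il2tm1Hor/J, so the genotype was taken from each sample's own genotype label. The design addresses what IL-2 signalling does in these cells. Whether the 3 samples of a group came from separate mice is not stated. The p-values therefore reflect the spread among the deposited samples, which may be technical.

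OAS enzymes are switched on by double-stranded RNA and join ATP molecules into short 2′-5′-linked chains. These chains act as a second messenger of the antiviral response, which limits viral growth. The genes are classical targets of type I interferon, which acts through the receptor chains Ifnar1 and Ifnar2 and a transcription factor that contains Stat2 and Irf9. That factor binds the interferon-stimulated response element (ISRE). Oas1a encodes a synthetase with 1 catalytic unit, and Oas2 and Oas3 encode larger proteins with repeated units. Oasl1 and Oasl2 carry ubiquitin-like domains behind the OAS unit. In the mouse, Oasl1 lacks synthetase activity and is known to hold back translation of Irf7, whereas Oasl2 is an active synthetase.

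On chromosome 5 of the mouse reference, Oasl2 and Oasl1 lie next to each other, with the other OAS-type genes there in a second cluster. Other chromosomes were not searched for this order. The promoter windows of the members are shown because the members moved together. Each runs from 250 bases before to 50 bases after the annotated start, in the orientation of the gene, from RefSeq on GRCm38.p6, and 4 of the 5 members were found there. Capitals mark matches on either strand to the ISRE core, which is GAAA followed by any 2 bases and GAAA again. The windows are chr5:120907476-120907775 (minus strand) for Oas1a, chr5:120777610-120777909 (minus strand) for Oas3, chr5:114922990-114923289 (plus strand) for Oasl1 and chr5:114896684-114896983 (plus strand) for Oasl2.
Oas1a: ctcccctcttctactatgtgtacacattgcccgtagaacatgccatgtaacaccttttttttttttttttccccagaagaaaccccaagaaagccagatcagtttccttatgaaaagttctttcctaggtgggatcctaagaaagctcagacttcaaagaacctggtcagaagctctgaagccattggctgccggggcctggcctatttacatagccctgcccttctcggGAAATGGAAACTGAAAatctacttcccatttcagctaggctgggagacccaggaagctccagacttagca
Oas3: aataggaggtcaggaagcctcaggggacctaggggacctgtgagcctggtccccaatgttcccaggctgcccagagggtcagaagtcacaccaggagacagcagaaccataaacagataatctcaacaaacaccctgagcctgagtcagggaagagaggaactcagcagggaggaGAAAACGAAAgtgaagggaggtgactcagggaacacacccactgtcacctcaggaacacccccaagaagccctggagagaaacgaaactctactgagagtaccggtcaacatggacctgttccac
Oasl1: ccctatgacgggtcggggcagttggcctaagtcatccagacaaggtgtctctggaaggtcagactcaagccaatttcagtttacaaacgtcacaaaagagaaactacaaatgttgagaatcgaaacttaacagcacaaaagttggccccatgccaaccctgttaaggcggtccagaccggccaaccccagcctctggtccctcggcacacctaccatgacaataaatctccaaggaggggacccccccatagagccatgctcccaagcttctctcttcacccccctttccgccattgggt
Oasl2: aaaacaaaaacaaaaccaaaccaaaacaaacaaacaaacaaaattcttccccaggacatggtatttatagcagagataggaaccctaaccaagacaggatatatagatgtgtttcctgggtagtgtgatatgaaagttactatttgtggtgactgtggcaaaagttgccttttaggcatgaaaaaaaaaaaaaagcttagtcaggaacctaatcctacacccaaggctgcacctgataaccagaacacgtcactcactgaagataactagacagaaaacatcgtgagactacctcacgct

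The ISRE core was found in 2 of the 4 member windows, against 3.4% of 32851 promoter windows of that length. Oas1a held a pair of overlapping matches, from base -20 to -11 and from -14 to -5, counted from -1 at the last base before the start. Oas3 held 1 match from base -75 to -66. The shorter interferon regulatory factor core AANNGAAA, which every ISRE match contains, was present in 3 of the 4 windows, including that of Oasl1, against 23.9% of all windows. The gamma-activated site TTCNNNGAA was present in the Oas1a window and in 8.3% of all windows. No match to these letters was found in the Oasl2 window. Among 4 paralog windows, the ISRE core was in 2, those of Oas1c and Oas1g, and the shorter core was in 4 of 4, those of Oas1f and Oas1h included.

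The members were measured well above the dim end of the arrays. Their means over 12 arrays lay between 9.49 (Oas2) and 11.85 (Oasl2) on the log2 scale, while array medians lay between 6.59 and 6.64. Dendritic cell markers averaged 11.86 to 12.17 on every array, with 9 of 9 measured. T cell (5.28 to 5.59), B cell (5.06 to 5.45), NK cell (5.04 to 5.28), mast cell and basophil (5.05 to 5.33) and neutrophil (5.71 to 6.07) markers averaged below the array medians. Macrophage markers were high too, at 11.42 to 11.85 with 5 of 6 measured. Some genes departed from the average of their list. By group mean, Gata2 (mast cells and basophils) read 8.40 to 9.19, S100a8 (neutrophils) 7.57 to 7.78 and Flt3 (dendritic cells) 6.78 to 7.70. Il2, the disrupted gene, read 5.87, 5.80 and 5.63 in knockout cells with curdlan and 7.80, 7.22 and 6.74 in wild-type cells with curdlan (log2 difference -1.48, adjusted p 0.0114 by limma). Without curdlan the order was the opposite: Il2 read 6.04, 5.88 and 5.77 in knockout cells and 5.56, 5.37 and 5.53 in wild-type cells, all below the array medians, and the difference of 0.41 did not pass (0.524). The Il2 values of untreated cells therefore give no check of the genotype labels, and whether the probes lie in the disrupted stretch is not stated.

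Curdlan raised all 5 members in IL-2 knockout cells and all 5 in wild-type cells, by limma's moderated test with Benjamini-Hochberg adjustment over all 19937 genes and a threshold of 0.05. The test passed as higher 9.29% of all genes in knockout cells and 7.27% in wild-type cells. For each member in each genotype, the 3 curdlan arrays lay above the 3 untreated arrays, a separation that 19.4% of all genes showed in knockout cells and 17.0% in wild-type cells. The median log2 rise of the members was 1.60 in knockout cells and 2.09 in wild-type cells, against 0.04 and 0.02 for the median gene. In bulk samples, more RNA per cell and more cells expressing a gene cannot be told apart.

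**Figure D1:**
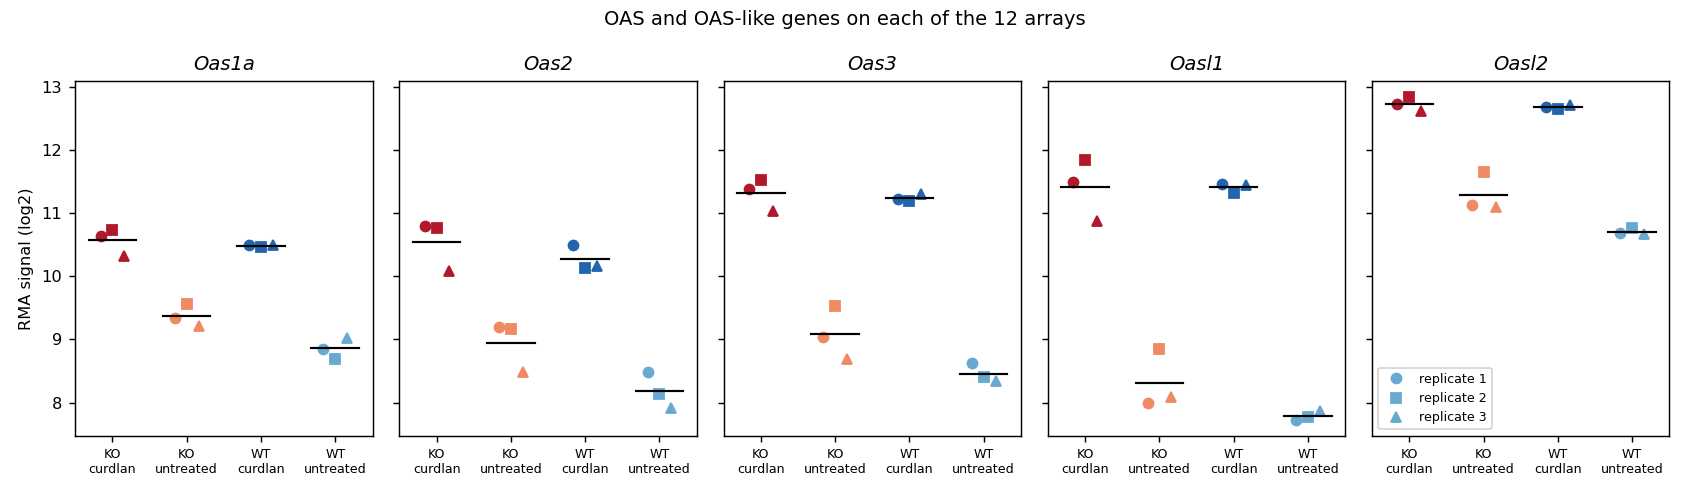
RMA signal (log2, vertical axis) of the 5 members on each array, by group along the horizontal axis; symbols mark the replicate number and black lines the mean of the 3 arrays. The curdlan arrays lie above the untreated arrays of their genotype for each gene, and the untreated knockout arrays lie above the untreated wild-type arrays except for an overlap of 0.01 in Oas2.

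Oas1a, the single-unit synthetase, gave 10.64, 10.74 and 10.32 in knockout cells with curdlan, against 9.34, 9.56 and 9.22 in untreated knockout cells. Wild-type cells gave 10.49, 10.46 and 10.49 with curdlan, against 8.85, 8.69 and 9.03 untreated. The curdlan groups overlapped each other and lay above both untreated groups, and the wild-type curdlan arrays differed by no more than 0.03. The rise was 1.19 ± 0.12 in knockout cells (log2, SE, adjusted p 8e-05 by limma) and 1.62 ± 0.12 in wild-type cells (adjusted p 6.45e-06), or 2.29-fold and 3.08-fold. A second probe set, annotated to Oas1a and Oas1g together, rose by 1.08 in knockout and by 1.53 in wild-type cells, which cannot be assigned to either gene.

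Oas2 encodes a synthetase with repeated OAS units. It gave 10.80, 10.76 and 10.09 in knockout cells with curdlan, against 9.20, 9.17 and 8.48 in untreated knockout cells. Wild-type cells gave 10.50, 10.13 and 10.17 with curdlan, against 8.49, 8.13 and 7.92 untreated. Replicate 3 of the knockout stood about as far below its mates in both treatments. The rise was 1.60 ± 0.23 in knockout cells (log2, SE, adjusted p 0.000996 by limma) and 2.09 ± 0.23 in wild-type cells (adjusted p 0.000141), or 3.02-fold and 4.25-fold.

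Oas3, the largest synthetase of the family, gave 11.38, 11.53 and 11.04 in knockout cells with curdlan, against 9.04, 9.53 and 8.69 in untreated knockout cells. Wild-type cells gave 11.22, 11.20 and 11.30 with curdlan, against 8.63, 8.41 and 8.34 untreated. With curdlan the wild-type arrays lay inside the range of the knockout arrays. The rise was 2.23 ± 0.18 in knockout cells (log2, SE, adjusted p 1.98e-05 by limma) and 2.78 ± 0.18 in wild-type cells (adjusted p 2.92e-06), or 4.69-fold and 6.88-fold.

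Oasl1, the OAS-like protein without synthetase activity, rose most of the 5. It gave 11.50, 11.84 and 10.88 in knockout cells with curdlan, against 7.99, 8.85 and 8.09 in untreated knockout cells. Wild-type cells gave 11.46, 11.32 and 11.45 with curdlan, against 7.73, 7.77 and 7.87 untreated. Both knockout groups were spread wider (SD 0.49 with curdlan and 0.47 untreated) than both wild-type groups (SD 0.08 with curdlan and 0.07 untreated, n = 3 each). The rise was 3.09 ± 0.24 in knockout cells (log2, SE, adjusted p 1.39e-05 by limma) and 3.62 ± 0.24 in wild-type cells (adjusted p 2.95e-06), or 8.54-fold with a 95% interval of 5.95 to 12.3 and 12.3-fold with 8.59 to 17.7. For each member the SE and intervals come from a spread pooled over all groups, so they do not show the wider spread of the knockout. By size of the log2 rise Oasl1 ranked 15 of 19937 genes in knockout cells and 9 in wild-type cells.

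Oasl2, the OAS-like gene with an active synthetase, gave 12.73, 12.84 and 12.62 in knockout cells with curdlan, against 11.13, 11.65 and 11.10 in untreated knockout cells. Wild-type cells gave 12.69, 12.65 and 12.72 with curdlan, against 10.68, 10.77 and 10.67 untreated. Its curdlan arrays all fell within a span from 12.62 to 12.84. The rise was 1.44 ± 0.12 in knockout cells (log2, SE, adjusted p 2.37e-05 by limma) and 1.98 ± 0.12 in wild-type cells (adjusted p 1.81e-06), or 2.71-fold and 3.95-fold.

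Without curdlan, the members read higher in knockout than in wild-type cells, but the difference passed the test for only 1 of them. The knockout minus wild-type difference was positive in 5 of 5 members, from 0.51 to 0.77 on the log2 scale with a median of 0.59, against 0.01 for the median gene. Of the 5, 1 passed the threshold, Oasl2, at 0.59 ± 0.12 (SE, 1.5-fold, adjusted p 0.0395 by limma), where 0.231% of all genes passed as higher. The other 4 did not pass: Oas1a at 0.51 (adjusted p 0.0604), Oas3 at 0.63 (0.147), Oas2 at 0.77 (0.169) and Oasl1 at 0.52 (0.467). The 3 knockout arrays lay above the 3 wild-type arrays in 4 of 5 members, a separation that 7.55% of all genes showed in this direction, and Oas2 missed it by 0.01. The groups were close together: the gap between the lowest knockout and the highest wild-type array was 0.33 for Oasl2, 0.18 for Oas1a, 0.12 for Oasl1 and 0.06 for Oas3.

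The call of Oasl2 in untreated cells was lost in 15 of 28 alternative fits. This happened when the untreated arrays were fitted alone (adjusted p 0.159) and when all probe sets were tested (0.091). It was also lost without untreated knockout array 1 (0.0571), without untreated wild-type arrays 1, 2 or 3 (0.0698, 0.132 and 0.131), and without curdlan arrays 1 or 2 of the knockout (0.0638 and 0.0532) or 2 or 3 of the wild type (0.0557 and 0.062). Same-numbered arrays of a genotype were taken as 1 culture, which the labels do not state. Leaving out whole cultures taken this way ended the call of Oasl2 too. This held for knockout cultures 1 and 2 (0.0991 and 0.0516) and wild-type cultures 1, 2 and 3 (0.0804, 0.162 and 0.192). Other choices added calls. Without knockout culture 3, 4 of the 5 members passed, Oas2 (0.0309), Oas3 (0.0336) and Oas1a (0.0371) beside Oasl2. Oas1a also passed without curdlan array 3 of the knockout (0.0343), and Oas3 without untreated array 3 of the knockout (0.0424). With the replicate number as a fixed block across both genotypes, Oas2 passed beside Oasl2 (0.00889). That block pairs same-numbered knockout and wild-type arrays, a pairing that the labels do not state. With the culture, a number within a genotype, as a random block, Oas1a passed beside Oasl2 (0.0418). The size of the Oasl2 difference stayed between 0.41 and 0.68 in all 28. The other members ranged from 0.42 to 0.60 (Oas1a), 0.64 to 1.01 (Oas2), 0.41 to 0.83 (Oas3) and 0.25 to 0.68 (Oasl1). On untreated knockout array 2 all 5 members lay above their group mean, by 0.19 to 0.54.

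With curdlan no genotype difference was detected. None of the 5 members passed and 0 of 5 had knockout arrays above all wild-type arrays, while 0.105% of all genes passed as higher and 7.71% showed that separation. The knockout minus wild-type differences were 0.28 for Oas2 (95% interval -0.23 to 0.79, adjusted p 0.729 by limma), 0.09 for Oas1a (-0.17 to 0.34), 0.08 for Oas3 (-0.32 to 0.48), 0.04 for Oasl2 (-0.22 to 0.31) and -0.01 for Oasl1 (-0.53 to 0.52). The intervals leave room for differences of up to 1.24-fold higher in the knockout for Oasl2 and up to 1.73-fold for Oas2. They also leave room for lower levels in the knockout, down to 0.887-fold for Oas1a and to 0.694-fold for Oasl1. Ordered by mean level, both curdlan groups came first for each member, without separation between them, then untreated knockout cells and last untreated wild-type cells.

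**Figure D2:**
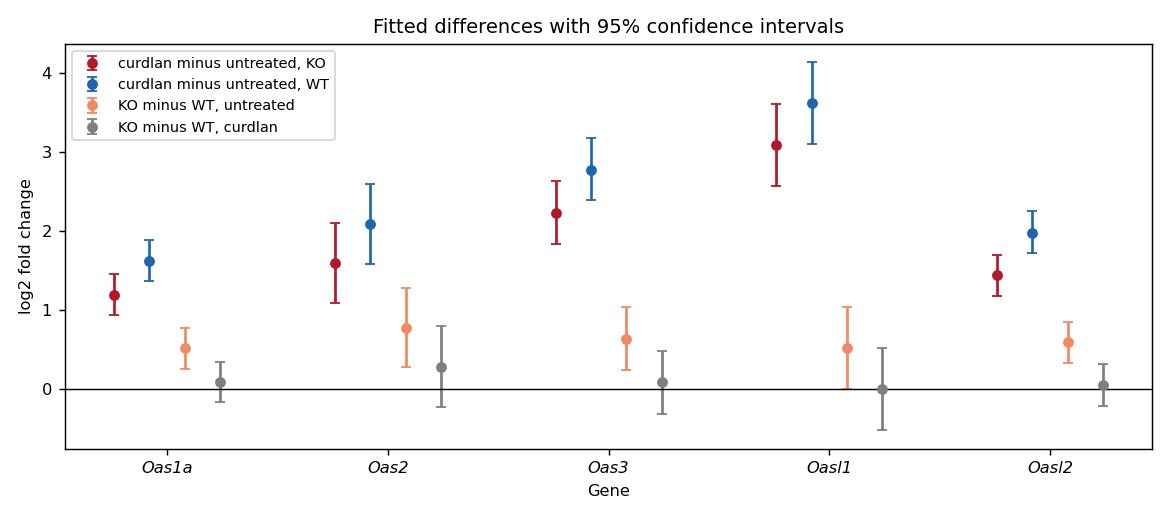
Fitted log2 fold changes (vertical axis) with 95% confidence intervals for 4 comparisons of each member (horizontal axis). The curdlan effects lie between 1.19 and 3.62, the knockout minus wild-type differences in untreated cells between 0.51 and 0.77, and those with curdlan between -0.01 and 0.28.

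The rise was smaller in knockout cells for each member, but that difference passed for none after adjustment. The interaction, taken as the knockout rise less the wild-type rise, was negative in 5 of 5 members, from -0.55 (Oas3) to -0.43 (Oas1a). Oasl2 had -0.54 ± 0.17 (SE, unadjusted p 0.00848 by limma) and Oas1a had -0.43 ± 0.17 (unadjusted p 0.0262). These 2 were under an unadjusted 0.05 in this direction, as were 0.993% of all genes. The unadjusted p-values of Oas3, Oasl1 and Oas2 were 0.0534, 0.143 and 0.16. After adjustment 0 of 5 members passed, as did 0.0% of all genes (smallest adjusted p over all genes 0.357, 552 genes under an unadjusted 0.05). This contrast uses the same arrays as the untreated difference and the curdlan effects above.

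The groups were not equally tight. The SD of the members had a median of 0.25 in knockout cells with curdlan and 0.41 in untreated knockout cells, against 0.05 in wild-type cells with curdlan and 0.15 in untreated wild-type cells. Over all genes the median SD was 0.07 to 0.09 in each group. On knockout replicate 2, 5 of 5 members were above their group mean both with curdlan and untreated, and on knockout replicate 3, 0 of 5 were, in either treatment. Taking same-numbered arrays as 1 culture, Oasl1 rose by 3.51, 2.99 and 2.78 in knockout cultures 1, 2 and 3 and by 3.73, 3.55 and 3.59 in wild-type cultures. Oasl2 rose by 1.60, 1.19 and 1.52 in knockout cultures and by 2.02, 1.88 and 2.05 in wild-type cultures. Oas1a rose by 1.30, 1.18 and 1.10 in knockout cultures and by 1.64, 1.77 and 1.46 in wild-type cultures. For Oas2 the rises were 1.60, 1.58 and 1.61 in knockout cultures and 2.01, 2.00 and 2.25 in wild-type cultures, and for Oas3 they were 2.34, 2.00 and 2.36 in knockout cultures and 2.60, 2.79 and 2.96 in wild-type cultures. In 5 of 5 members each knockout rise was below each wild-type rise, by as little as 3.51 against 3.55 in Oasl1, and 4.54% of all genes showed this separation in the same direction. These are the arrays of the interaction, for which 0 of 5 members passed.

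**Figure D3:**
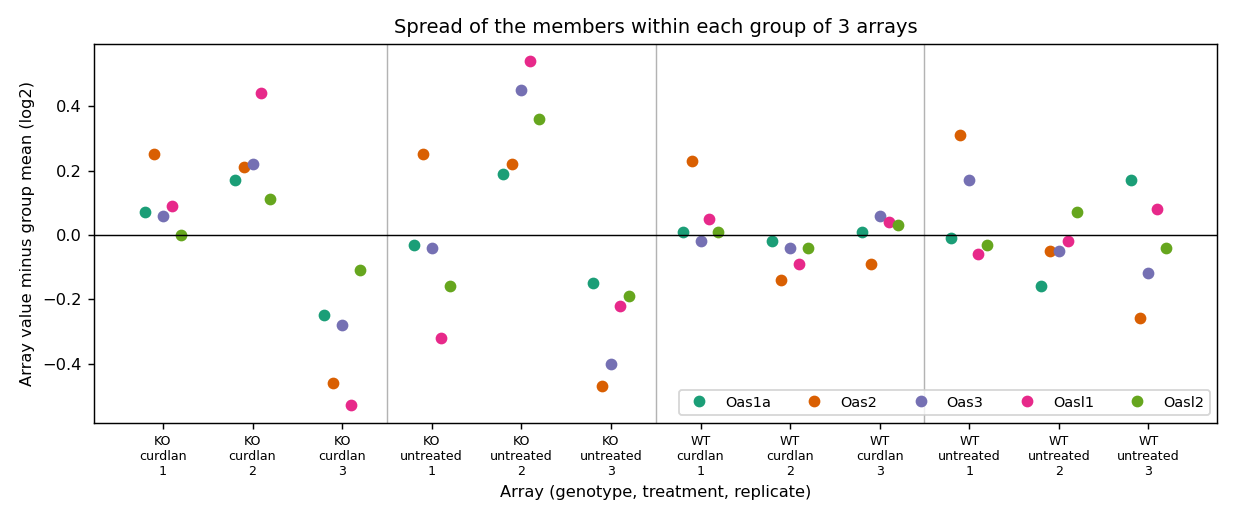
Deviation of each member from the mean of its group (log2, vertical axis) on each of the 12 arrays (horizontal axis); colours mark the genes and vertical lines part the groups. On knockout replicate 3 the members lie below 0 in both treatments, by up to 0.53, and on knockout replicate 2 they lie above 0.

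The neighbouring paralogs split into genes that followed the members and genes that stayed near the dim end. Of the 6 paralogs tested, 2 rose in both genotypes. Among all genes, 9.29% passed as higher in knockout cells and 7.27% in wild-type cells. Oas1b, which the mouse reference lists as a transcribed pseudogene, rose by 1.32 in knockout cells (adjusted p 1.13e-05 by limma) and by 1.59 in wild-type cells (1.82e-06). Oas1c rose by 0.48 in knockout cells (0.00386) and by 0.92 in wild-type cells (5.86e-05). In untreated cells Oas1b read 7.45, 7.49 and 7.49 in the knockout and 7.10, 7.22 and 7.19 in the wild type (difference 0.31, adjusted p 0.198). The untreated differences of Oas1d, Oas1e, Oas1f and Oas1h were -0.12, -0.05, 0.02 and 0.01. Of the 6, 1 passed by genotype in untreated cells, Oas1c, where 0.231% of all genes passed as higher. Oas1c gave 6.94, 7.07 and 6.87 in untreated knockout cells against 6.73, 6.49 and 6.40 in untreated wild-type cells (difference 0.42, adjusted p 0.0433). That call was lost in 19 of 28 alternative fits, among them those without untreated knockout arrays 1, 2 or 3 (0.125, 0.157 and 0.0593) and without untreated wild-type arrays 2 or 3 (0.207 and 0.166). Oas1d, Oas1e, Oas1f and Oas1h averaged 4.15 to 5.67 over the arrays and did not pass in any comparison, with curdlan effects between -0.12 and 0.24. Oas1g had no probe set of its own.

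**Figure D4:**
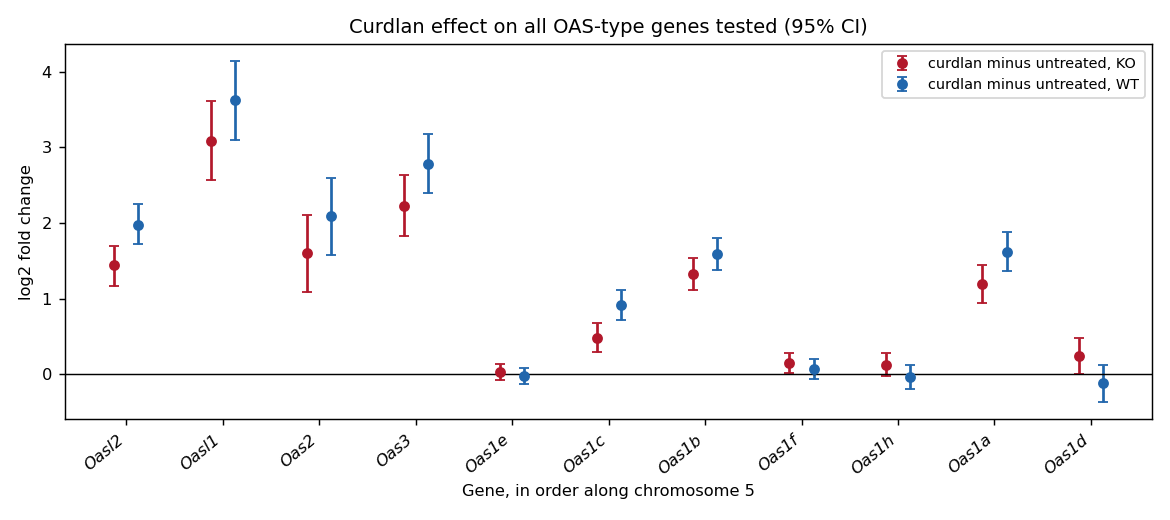
Curdlan effect (log2 fold change with 95% confidence interval, vertical axis) on the 11 OAS-type genes tested, ordered along chromosome 5 (horizontal axis, not to scale), in knockout (red) and wild-type (blue) cells. The 5 members, Oas1b and Oas1c lie above 0, and Oas1d, Oas1e, Oas1f and Oas1h lie between -0.12 and 0.24.

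Neither Abce1 nor Pde12 rose. Abce1, an ATP-binding protein that acts in ribosome recycling, fell by 0.52 in knockout cells (log2, adjusted p 0.00295 by limma) and by 0.46 in wild-type cells (0.00534), where 13.2% and 12.3% of all genes passed as lower. The wild-type call of Abce1 was lost without wild-type culture 1 (0.0659). Pde12, a phosphodiesterase that degrades 2′-5′ chains, fell by 0.25 in knockout cells (0.0373), a call lost in 14 of 28 alternative fits, and did not pass in wild-type cells (-0.22, 0.0623).

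RNA and DNA sensors and antiviral partners, a list of 9, rose in 7 of 9 and fell in 1 of 9 in each genotype. Of all genes, 9.29% passed as higher and 13.2% as lower in knockout cells, and 7.27% and 12.3% in wild-type cells. The list median was 0.93 in knockout and 1.11 in wild-type cells, against 0.04 and 0.02 for all genes. The helicase sensor gene Ifih1 (MDA5) rose by 1.96 in knockout and by 2.16 in wild-type cells, the related Dhx58 (LGP2) by 1.84 and 2.10, and Rigi (RIG-I) by 1.55 and 1.72, with adjusted p between 1.49e-07 and 3.21e-06 by limma. Mavs, the adaptor behind the helicases, fell by 0.30 in knockout (0.0266) and by 0.43 in wild-type cells (0.00409). The knockout call of Mavs was lost in 8 of 28 alternative fits. In untreated cells 0 of 9 passed by genotype, with a median difference of 0.23, against 0.01 for all genes. Sting1 differed the other way, by -0.24 (adjusted p 0.461 by limma), with arrays that overlapped. The knockout arrays lay above the wild-type arrays in 5 of 9 (Ifih1, Dhx58, Rigi, Eif2ak2 and Tlr3), by gaps of 0.03 to 0.14, beside the 7.55% of all genes given above.

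Of 13 genes of interferon signalling tested, 8 rose in knockout cells and 7 in wild-type cells, and 0 fell. The shares of all genes that passed were 9.29% and 7.27% as higher, and 13.2% and 12.3% as lower. Irf7, the factor whose translation Oasl1 restrains, gave 12.02, 12.29 and 11.58 in knockout cells with curdlan, against 9.02, 9.73 and 8.98 in untreated knockout cells. Wild-type cells gave 11.94, 11.85 and 11.82 with curdlan, against 8.68, 8.50 and 8.39 untreated. The Irf7 rise was 2.72 ± 0.20 in knockout (log2, SE, adjusted p 1.13e-05 by limma) and 3.35 ± 0.20 in wild-type cells (1.58e-06). In untreated cells all knockout arrays of Irf7 lay above the wild-type arrays without passing (difference 0.73, adjusted p 0.126). The deconjugating enzyme gene Usp18 rose by 1.83 in knockout and by 1.79 in wild-type cells, Stat2 by 1.35 and 1.37, and Irf9 by 0.49 and 0.54. Usp18 and Stat2 differed by genotype in untreated cells by -0.14 and -0.07 and did not pass (0.779 and 0.958). Of the receptor chains, Ifnar1 rose by 0.18 in knockout (0.0358) and by 0.19 in wild-type cells (0.033), calls lost in 12 and 10 of 28 alternative fits, and Ifnar2 did not pass (0.45 and 0.631).

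Interferon ligand transcripts did not pass in either genotype. Of 14 ligand genes tested, 0 passed with curdlan in knockout cells (log2 changes from -0.24 to 0.29, smallest adjusted p 0.0743 by limma) and 0 in wild-type cells (-0.09 to 0.17, 0.318). Ifnb1 gave 4.91, 5.10 and 4.78 in knockout cells with curdlan, against 4.61, 4.72 and 4.71 in untreated knockout cells, and 5.02, 4.78 and 4.65 in wild-type cells with curdlan, against 4.87, 4.73 and 4.80 untreated. These values lie below or near the lower quartile of the arrays (5.08 to 5.15), where a change in RNA may not show. Of the 14, 12 averaged below the median probe set. In 5 of 14, Ifnb1 among them, the knockout curdlan arrays lay above the untreated knockout arrays, beside 19.4% of all genes. In wild-type cells this held for 1 of 14, beside 17.0% of all genes. The median ligand change was 0.15 in knockout and 0.05 in wild-type cells, against 0.04 and 0.02 for all genes. The Ifna genes are near copies of each other that probes may not separate. Under 7 of 28 alternative fits, 1 to 3 of the 14 passed as higher in knockout cells, the most with the culture as a random block.

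**Figure D5:**
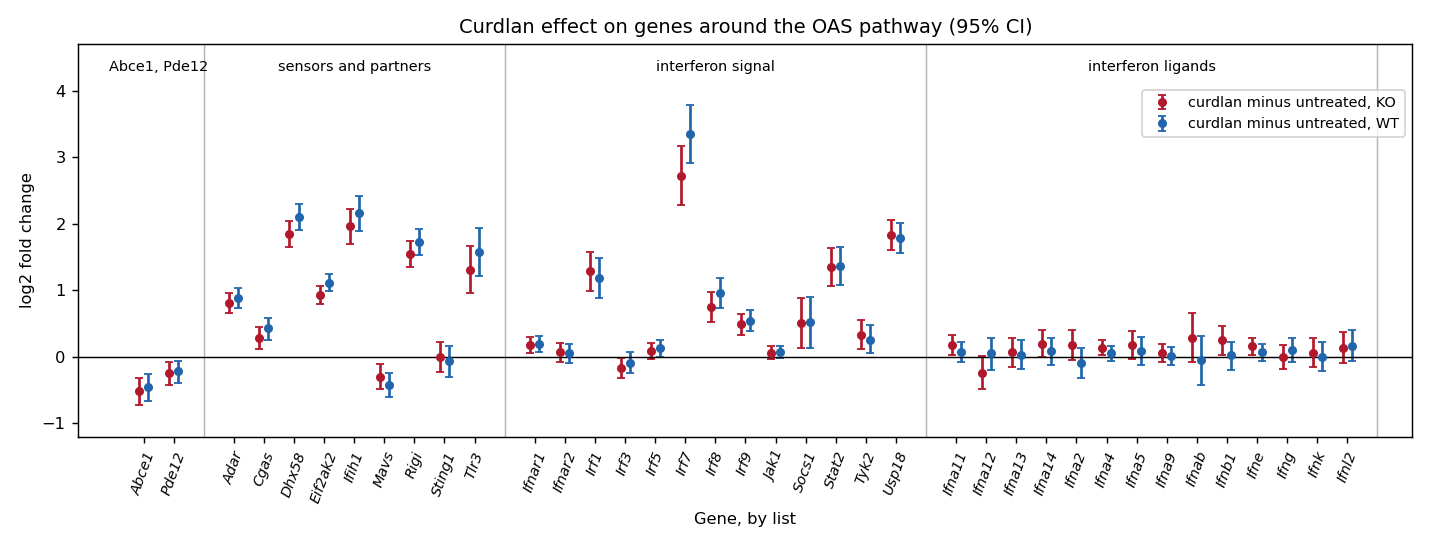
Curdlan effect (log2 fold change with 95% confidence interval, vertical axis) on Abce1 and Pde12, sensors and partners, interferon signalling and interferon ligands (horizontal axis), in knockout (red) and wild-type (blue) cells. Irf7 lies highest, at 2.72 and 3.35, and the ligands lie between -0.24 and 0.29.

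The genes most like each member were found by the root mean square difference between log2 profiles over the 12 arrays, each centred on its own mean. They are described without a test. Oasl1 was nearest to Ifit3 (0.17), Ifit1 (0.18) and Cmpk2 (0.19). Oas3 was nearest to Slfn1 (0.13), Ddx60 (0.18) and Rsad2 (0.27). Oas1a was nearest to H2-T24, Slfn5 and Tent5c (0.11 each). Oas2 was nearest to Slfn8 (0.21), Rtp4 (0.22) and Casp4 (0.29), and Oasl2 to Rnf213 (0.10), Irgm1 (0.13) and Ddx58, the older symbol of Rigi (0.14). The mean profile of the 5 was nearest to Slfn8 (0.15), Ddx60 (0.17), Ifih1 (0.18), Dhx58, Slfn1 and Gbp9 (0.20 each), Zbp1 (0.21), Herc6 (0.22), Irgm1 (0.23) and Nt5c3 (0.24). Among the members, Oas1a and Oasl2 were closest to each other (0.20) and Oas1a and Oasl1 farthest apart (0.99).

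Marker lists moved in part with curdlan, that of dendritic cells included. Of the 9 dendritic cell markers, 2 rose in the knockout and 1 in the wild type. Beside these and the counts below, 9.29% of all genes passed as higher in knockout cells and 7.27% in wild-type cells. Plasmacytoid dendritic cells are strong makers of type I interferon. Their list, with 6 of 7 measured, averaged 7.00 to 7.10 in knockout cells with curdlan and 6.78 to 6.89 in untreated knockout cells, against 7.08 to 7.21 and 6.81 to 6.96 in wild-type cells, and 2 of 6 rose in the knockout and 1 of 6 in the wild type. Tcf4, which rose in both genotypes, averaged 10.00 in knockout cells with curdlan and 9.20 in untreated knockout cells, against 10.02 and 9.15 in wild-type cells. Siglech, Ccr9 and Ly6d averaged below the median probe set mean of 6.62 (Siglech 5.87 to 5.96 over the groups), and Cox6a2 (7.09 to 7.50) and Pacsin1 (7.18 to 7.96) lay above it. Macrophage markers averaged 11.82 to 11.84 in knockout cells with curdlan and 11.55 to 11.75 in untreated knockout cells, against 11.69 to 11.85 and 11.42 to 11.56 in wild-type cells, with 2 of 5 higher with curdlan in each genotype. In knockout cells 1 of 5 NK cell markers and 1 of 5 mast cell and basophil markers rose with curdlan, and no marker of any list passed by genotype. The part of these cells in the OAS values was not tested.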

How the data were processed

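RNA of 12 samples was measured on Affymetrix mouse gene arrays from 100 ng of total RNA, per the labels' protocols. The deposited values are log2 signals per probe set, made with RMA per the submitters' processing notes. RMA subtracts background, brings arrays to 1 distribution and combines the probes of a set. Its software and version were not given in the sources used here. Correlations between arrays ranged from 0.981 to 0.997 and 0 pairs were identical. The number of arrays limits the precision.

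Of 34760 probe sets, 21640 had exactly 1 gene symbol, 1321 several and 11799 were not listed. Each gene was represented by its probe set of highest mean (954 genes had a choice), which gave 19937 genes. One linear model with a mean per group (limma 3.58.1, R 4.3.3) covered the 12 arrays (8 residual degrees of freedom, two-sided moderated test, Benjamini-Hochberg adjustment within each contrast, threshold 0.05). The fit was also run on simulated data with independent arrays and the same spread in all groups. That run does not cover unequal spread between groups or shared cultures. Named are the members, a pathway list with up to 3 of its largest changes, and the nearest genes (3 per member and 10 for the mean profile, without predicted genes). The members and lists were chosen with earlier results of these data known. Probe annotation is GEO's, with symbols checked in RefSeq (19855 of 19937 gene IDs matched). Promoter windows are RefSeq's, and the build of the probe annotation was not given in the sources used here.

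After removal of group means, same-numbered arrays of a genotype correlated across genes at 0.49, 0.53 and 0.60 in knockout and at 0.45, 0.37 and 0.40 in wild-type cells. The number was therefore taken to mark a culture, which the labels do not state. Between genotypes the untreated pairs correlated at 0.22, 0.11 and 0.25 and the curdlan pairs at 0.17, -0.13 and 0.33. The alternatives were other probe sets, filters, scalings, priors, weights and blocks, and leaving out each array or culture. The random replicate block was the culture. The fixed block was the culture in the curdlan contrasts and the interaction. In the genotype contrasts it was the replicate number, shared by both genotypes.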

Additional observations from a re-analysis of the deposited data

How the results depend on the processing

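The 5 members passed in both curdlan contrasts under all 28 alternatives, with and without the replicate block and without any single array or culture. None passed with curdlan by genotype under the 28 alternatives, or in the interaction under the 27 that could be fitted. Members passing in untreated cells by genotype numbered 1, and 0 with all probe sets or only the arrays compared. They numbered 2 with only genes above the median probe set mean, an intensity trend or array weights. They also numbered 2 with the replicate number as a fixed block or the culture as a random block. When an array or culture was left out, they numbered 0 to 4. In treated cells the near-zero genotype difference of Oasl1 (-0.01) turned to 0.01 with arrays at a common median, 0.02 after quantile normalization and 0.12 with array weights, and ranged from -0.22 to 0.26 without single arrays or cultures. Under the same omissions the differences ranged from -0.0008 to 0.21 for Oas1a, from -0.03 to 0.22 for Oas3 and from -0.01 to 0.10 for Oasl2. No cause was tested. The replicate block changed no other call of a member. Over all genes, 283 passed by genotype in untreated cells and 124 with curdlan, but 70 and 15 with only the arrays compared, 147 and 28 over all probe sets, 615 and 1402 with array weights, and 699 and 450 with the fixed replicate block. Leaving out arrays or cultures moved them from 9 to 608 and from 18 to 299, and the curdlan counts from 1079 to 5284 in knockout cells (4481 with all arrays) and from 1841 to 4011 in wild-type cells (3899). Groups of 3 arrays are too small for a test of outlying arrays.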
